A study of Saccharomyces cerevisiae with 6 samples.

Results

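The deletion of PDR3 was examined in yeast cells that overexpress PSD1, by RNA sequencing of 4 of the 6 libraries of the series. Of these, 2 came from a pdr3Δ strain carrying GAL-PSD1 (called pdr3Δ below) and 2 from a strain with the same construct and PDR3 in place (called GAL-PSD1). The libraries were chosen by the treatment named in their labels, and all loci of the deposited count table were taken, 6931 in number, of which 6171 passed the filter on low counts and were tested. All strains were Saccharomyces cerevisiae W303, a common laboratory background. Both groups carried a 2µ plasmid, a kind kept at many copies per cell, that expresses PSD1 from the galactose-inducible GAL promoter. Cells grew in rich medium with 2% raffinose, and 2% galactose was given for 4 h to induce the construct. The remaining 2 libraries are wild-type W303 (WT), and they serve below as a reference level. The protocol text is shared by all 6 libraries and marks induction as plus or minus, without saying which samples were minus. GAL1, GAL2, GAL7 and GAL10 read far lower in WT than in the other groups (values below). WT is therefore not matched for galactose gene expression, and every distance from WT below includes that difference. The labels do not say whether the 2 libraries of a group came from separate cultures or clones, so every p-value measures only the spread between these libraries, which may be technical.

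PSD1 encodes a phosphatidylserine decarboxylase that sits in the inner membrane of mitochondria and has to be imported into the organelle after its synthesis in the cytosol. Pdr3 and its paralog Pdr1 are zinc cluster transcription factors of pleiotropic drug resistance, which bind short palindromic response elements upstream of drug efflux pumps and lipid genes. When import is overloaded, a Pdr3-dependent program called mitoCPR induces CIS1, whose product brings the ATPase Msp1 to the import receptor Tom70 so that stalled precursors are removed from the outer membrane. The comparison asks which transcripts of cells overexpressing PSD1 depend on PDR3.

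Total counts per library ranged from 10220872 to 12315448. Replicates correlated across loci at 0.9956 to 0.9969 on the log2 CPM scale (counts scaled to library size by TMM, as CPM). On the first principal component, which held 76.1% of the variance, both pdr3Δ libraries (8.2 and 9.11) lay between the other groups. They were nearer to GAL-PSD1 (17.5 and 18.5) than to WT (-27 and -26.3). On the second component (13.4%) pdr3Δ stood apart at -10.4 and -11.2, with WT at 2.55 and 1.96 and GAL-PSD1 at 7.96 and 9.12. The deleted gene was read first. PDR3 (YBL005W, chrII:217470-220400, R64 build) had 724 and 798 counts in WT, 2283 and 2245 in GAL-PSD1, and 3 and 9 in pdr3Δ, as the labels have it. Its fitted difference of -8.66 ± 0.16 (log2, pdr3Δ minus GAL-PSD1, ± SE, edgeR adjusted p = 1.19e-09) rests on these few reads and depends on how the fit treats low counts. All differences below are log2 fold changes in that direction, n = 2 libraries a group, unless said otherwise.

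The dose of the inducing gene was not equal between the groups. PSD1 (YNL169C, chrXIV:316169-317671) reached 14470 and 16490 CPM in GAL-PSD1 and 9370 and 9071 CPM in pdr3Δ, against 1495 and 1319 CPM in WT. Both pdr3Δ libraries lay below both overexpression libraries, by 0.75 ± 0.09 (edgeR adjusted p = 0.000668), and far above WT. URA3 (YEL021W, chrV:116167-116970), a pyrimidine synthesis gene that yeast plasmids often carry as a marker, had 12140 and 12780 CPM in GAL-PSD1, 4401 and 5843 CPM in pdr3Δ, and 16650 and 17280 CPM in WT. It was lower by 1.28 ± 0.12 (adjusted p = 0.000167) without overlap of the groups. The labels do not name the plasmid's marker. The part of the lower PSD1 and URA3 levels in the differences described below was not tested.

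**Figure D1:**
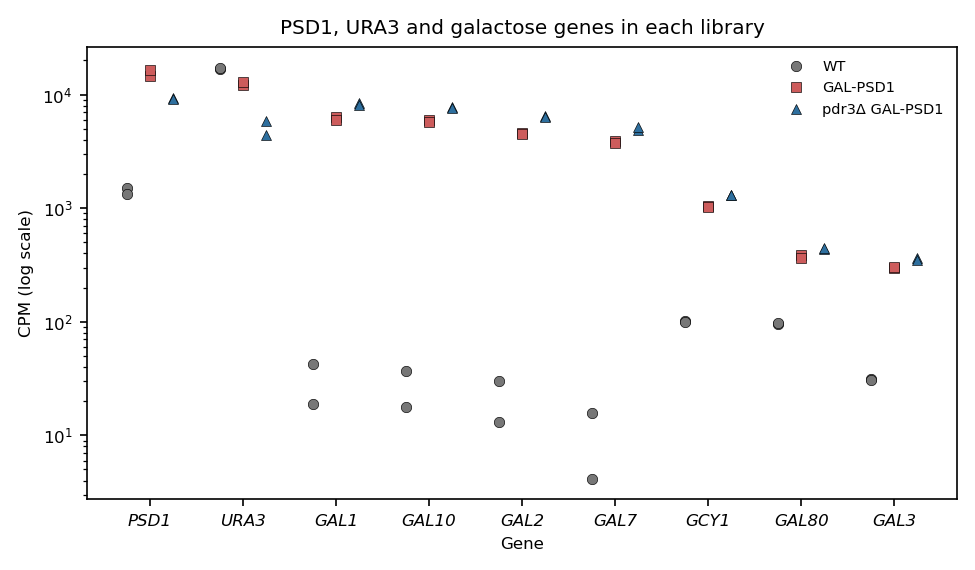
CPM (log scale) of PSD1, URA3 and the galactose genes in each of the 6 libraries, with 1 symbol per library and WT in grey, GAL-PSD1 in red and pdr3Δ with GAL-PSD1 in blue. PSD1 and URA3 lie lower in both pdr3Δ libraries than in both GAL-PSD1 libraries, whereas the galactose genes shown lie slightly higher.

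Across the transcriptome the 2 groups showed few large differences and many small ones. At an adjusted p under 0.05, 563 loci (9.12% of those tested) were lower in pdr3Δ and 728 (11.8%) were higher, with a median difference of -0.30 among the lower and 0.26 among the higher. The large differences went down: 25 loci (0.405%) were at least 2-fold lower and 1 at least 2-fold higher, and at 4-fold the counts were 6 and 0. Of the 25 loci, 10 belong to the 20 listed targets of Pdr1 and Pdr3, and PDR3 itself is another. Those targets were listed with earlier results of these data known. The count of small differences rested strongly on single libraries. Without GAL-PSD1 library 2 the calls were 132 lower and 101 higher, without library 1 of that group 224 and 311, without pdr3Δ library 1 322 and 474, and without pdr3Δ library 2 264 and 351. The count of loci at least 2-fold lower stayed between 20 and 28 under those removals and that of any WT library.

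**Figure D2:**
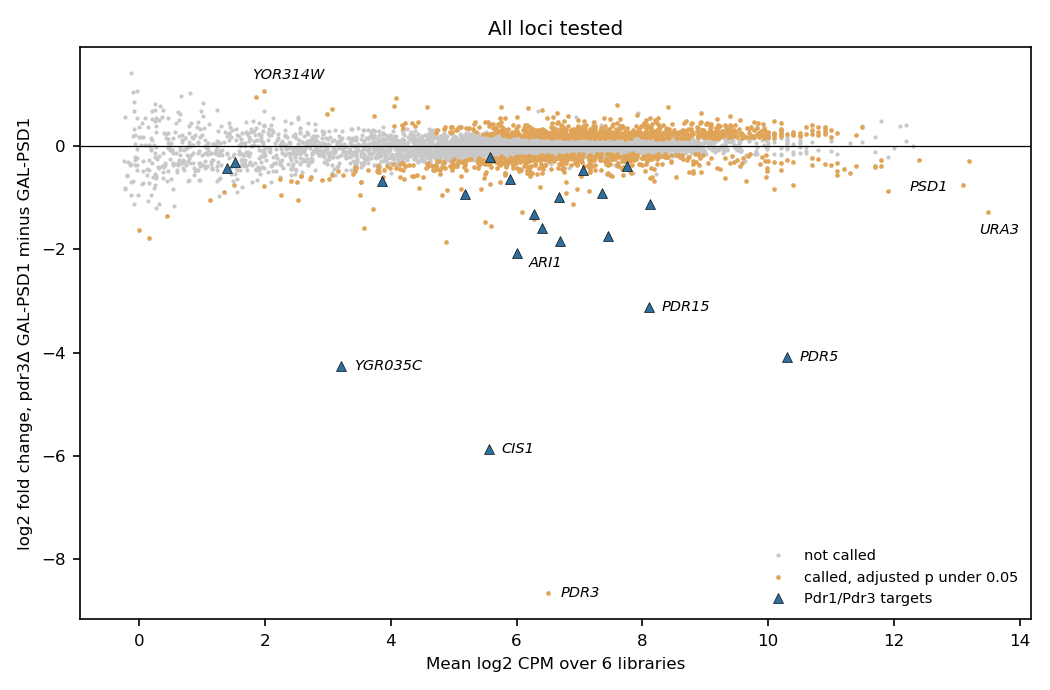
Log2 fold change (pdr3Δ minus GAL-PSD1) of the 6171 loci tested against their mean log2 CPM over 6 libraries. Grey points were not called, orange points were called at an adjusted p under 0.05 and blue triangles are the listed Pdr1/Pdr3 targets, and the strongest falls are PDR3 at -8.66, CIS1 at -5.86, YGR035C at -4.25, PDR5 at -4.08 and PDR15 at -3.11.

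Of the 20 listed targets, 17 were lower in pdr3Δ and 0 were higher, with a median of -1.05, against 9.12% lower and a median of 0.00 over all loci tested. PDR10, HXT9 and HXT11 did not pass. Since the lists were chosen by name with earlier results of these data known, this count describes the lists only. Without GAL-PSD1 library 2 the count was 15, since TPO1 (adjusted p = 0.0554) and YLL056C (0.0511) no longer passed, and it was 17 without any other single library. Together the 20 targets took 0.63% and 0.702% of all counts in GAL-PSD1 and 0.144% and 0.148% in pdr3Δ, while WT had 0.152% and 0.144%. The pdr3Δ libraries thus lay at the level of WT in this sum.

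CIS1 (YLR346C, chrXII:822287-822592), the adaptor of mitoCPR, had 12 and 11 counts in WT, 1510 and 1529 in GAL-PSD1, and 24 and 33 in pdr3Δ. It was 58.1-fold lower in pdr3Δ (-5.86 ± 0.13, adjusted p = 3.54e-09), and no pdr3Δ library came near the overexpression libraries. In FPKM, which corrects for length, CIS1 stood at 1226 and 1381 in GAL-PSD1, ranks 324 and 275 among the loci tested, and at 18.38 and 26.09 in pdr3Δ, ranks 5481 and 5074. A small excess over WT was still called (1.31 ± 0.34, adjusted p = 0.0113), from 1.04 and 0.898 CPM in WT to 1.99 and 2.88 CPM in pdr3Δ. YGR035C (chrVII:557072-557422), an uncharacterised gene of the same list, had 25 and 20 counts in WT, 260 and 283 in GAL-PSD1 and 14 and 17 in pdr3Δ. It was 19-fold lower (-4.25 ± 0.20, adjusted p = 1.49e-06), down to the level of WT, from which pdr3Δ did not differ past the threshold (-0.52 ± 0.34, adjusted p = 0.26).

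The ABC transporters of the plasma membrane, which export drugs and lipids, held the next largest differences, with 4 of 5 lower. PDR5 (YOR153W, chrXV:619840-624375), the main drug efflux pump, read 3123 and 3591 CPM in GAL-PSD1, 186.2 and 210.1 CPM in pdr3Δ, and 365.5 and 328.2 CPM in WT. The deletion strain lay 16.9-fold below the overexpression strain (-4.08 ± 0.09, adjusted p = 3.83e-09) and also below both WT libraries (-0.81 ± 0.09 against WT, adjusted p = 5.45e-05). By FPKM its rank went from 513 and 445 in GAL-PSD1 to 4207 and 3969 in pdr3Δ. PDR15, a close relative of PDR5, shares its locus with the small open reading frame YDR406W-A, and the locus (chrIV:1279210-1284044) read 662.9 and 717.4 CPM in GAL-PSD1, 79.4 and 80.5 CPM in pdr3Δ, and 71.7 and 54.5 CPM in WT. It was 8.63-fold lower (-3.11 ± 0.10, adjusted p = 6.51e-08) and remained slightly above WT (0.34 ± 0.11, adjusted p = 0.0273).

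SNQ2 (YDR011W, chrIV:465919-470424), another multidrug pump, read 436.1 and 465 CPM in GAL-PSD1 against 205.5 and 208.7 CPM in pdr3Δ. YOR1 (YGR281W, chrVII:1052824-1057257), which exports organic anions and oligomycin, read 151.8 and 158.1 CPM against 77.8 and 78.3 CPM. Neither gene's groups overlapped, and both were lower, SNQ2 by 1.12 ± 0.07 (adjusted p = 6.15e-06) and YOR1 by 0.99 ± 0.05 (adjusted p = 3.03e-06). PDR10 (YOR328W, chrXV:931803-936497), the remaining pump of the list, read 60.4 and 48.3 CPM against 45.5 and 48.4 CPM. Its groups overlapped and its difference did not pass (-0.22 ± 0.10, adjusted p = 0.148).

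All 5 listed reductases and dehydrogenases were lower. ARI1 (YGL157W, chrVII:209006-210049), an NADPH-dependent aldehyde reductase, read 119.9 and 136.9 CPM in GAL-PSD1 and 29.2 and 32.6 CPM in pdr3Δ, with WT at 31.3 and 37.4 CPM. The pdr3Δ libraries lay 4.16-fold below the overexpression libraries (-2.06 ± 0.10, adjusted p = 1.37e-06) and overlapped WT. GRE2 (YOL151W, chrXV:43694-44722), a methylglyoxal reductase, read 353.9 and 392.7 CPM in GAL-PSD1, 103.3 and 119.8 CPM in pdr3Δ, and 41.3 and 42.6 CPM in WT. BDH2 (YAL061W, chrI:33448-34701), a putative alcohol dehydrogenase, read 157.5 and 179 CPM, 60.4 and 51.7 CPM, and 31 and 32.4 CPM in the same order. For these last genes pdr3Δ stood between the other groups without overlap: GRE2 was lower than in GAL-PSD1 by 1.74 ± 0.07 (adjusted p = 6.81e-07) and above WT by 1.41 ± 0.09, and BDH2 was lower by 1.58 ± 0.08 (adjusted p = 3.03e-06) and above WT by 0.82 ± 0.10. The uncharacterised YLL056C (-0.68 ± 0.11) and YPL088W (-0.64 ± 0.07), a putative aryl alcohol dehydrogenase, differed less. GRE2 overlaps YOL150C on the opposite strand over 250 bp, and YOL150C was also lower (-1.86 ± 0.10, adjusted p = 3.03e-06). No source used here gives the strand setting of the counting, so reads of the pair cannot be told apart.

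All 5 lipid genes of the target lists were lower too, by 1.31 or less except LAF1. LAF1 (YMR102C, chrXIII:469848-472352), whose product sits at contacts between the endoplasmic reticulum and the plasma membrane and is tied to sterol transport, read 182.5 and 208 CPM in GAL-PSD1 and 52.9 and 56.3 CPM in pdr3Δ. ICT1, a lysophosphatidic acid acyltransferase, read 129.6 and 135.1 CPM against 54.8 and 51.9 CPM. In both cases the pdr3Δ libraries lay far below, by 1.84 ± 0.07 for LAF1 (adjusted p = 4.8e-07) and 1.31 ± 0.06 for ICT1 (adjusted p = 6.81e-07), and neither gene differed from WT past the threshold (adjusted p = 0.0962 and 0.183). RSB1, an exporter of sphingoid long-chain bases, was lower by 0.93 ± 0.10, PDR16, a phosphatidylinositol transfer protein, by 0.91 ± 0.05, and IPT1, which makes the most complex yeast sphingolipid, by 0.39 ± 0.04. Of the 3 other transporters of the lists 1 was lower. The polyamine exporter gene TPO1 was lower by 0.46 ± 0.07 (adjusted p = 0.0031), while the hexose transporter genes HXT9 (-0.41 ± 0.22, adjusted p = 0.216) and HXT11 (-0.31 ± 0.21, adjusted p = 0.344) did not pass. HXT9 and HXT11 are nearly identical and had 1.06 to 4.21 CPM in every library, so their counts are uncertain.

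**Figure D3:**
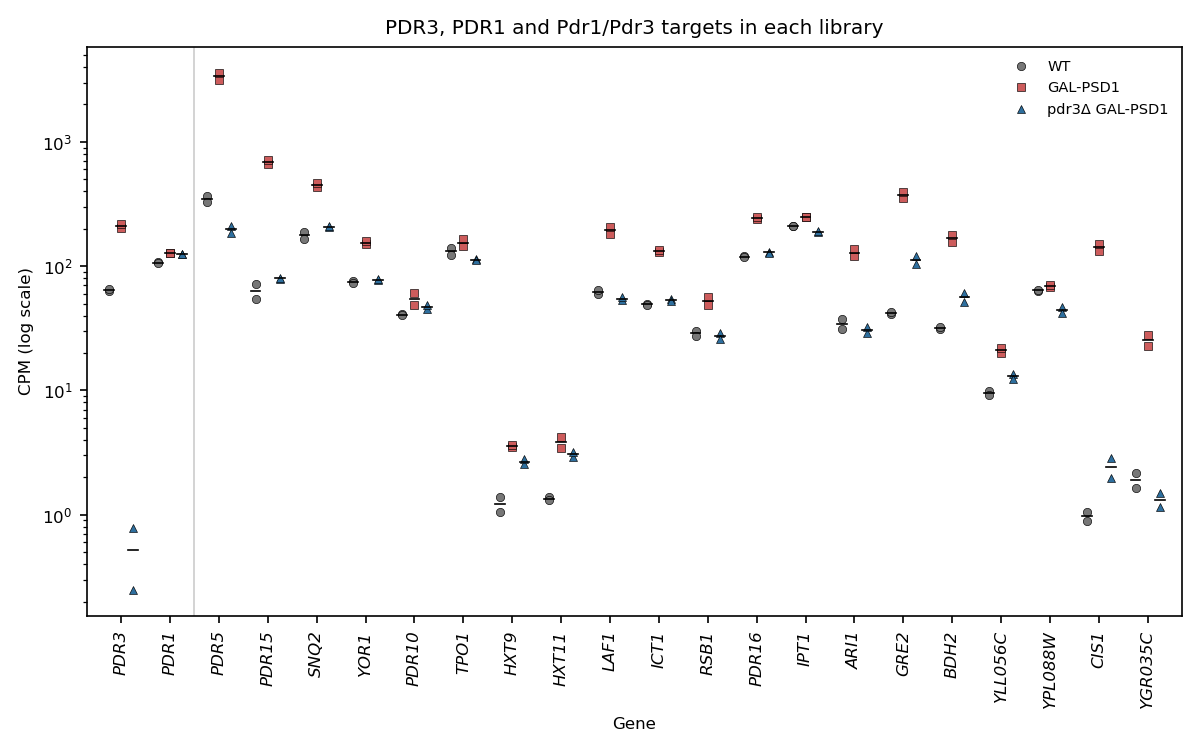
CPM (log scale) of PDR3, PDR1 and the 20 listed Pdr1/Pdr3 targets in each library, with 1 symbol per library, short lines for group means, WT in grey, GAL-PSD1 in red and pdr3Δ with GAL-PSD1 in blue. For each target except PDR10 both blue symbols lie below both red ones, HXT9 and HXT11 included although their differences did not pass, with many at the height of WT, while PDR1 stays near 124 to 128 CPM in both groups.

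The sequences upstream of the strongest targets show the element that Pdr1 and Pdr3 bind. Both strands of the R64 reference genome (strain S288C, not W303) were searched for TCCGNGGA. This pattern includes the palindrome TCCGCGGA and the common form TCCGTGGA, and each match to it is in capitals below. The stretches run in the direction of the gene, from chrII:217236-217296 for PDR3 (+ strand), chrXII:822900-822927 for CIS1 (- strand), chrVII:557721-557850 for YGR035C (- strand), chrXV:619267-619544 for PDR5 (+ strand), chrIV:1278821-1278848 for PDR15 (+ strand) and chrXIII:472941-472968 for LAF1 (- strand). They are shown because PDR3 and these 5 targets have the largest differences among the genes of the target lists that hold a match within 1000 bases, and because their elements differ in number and form. ARI1, which differed more than LAF1, has no match there.
PDR3: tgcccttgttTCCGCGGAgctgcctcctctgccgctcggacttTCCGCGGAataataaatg
CIS1: tccgcctattTCCGCGGAatcaataggg
YGR035C: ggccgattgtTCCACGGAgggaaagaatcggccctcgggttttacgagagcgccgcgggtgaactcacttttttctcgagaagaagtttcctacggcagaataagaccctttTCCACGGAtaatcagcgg
PDR5: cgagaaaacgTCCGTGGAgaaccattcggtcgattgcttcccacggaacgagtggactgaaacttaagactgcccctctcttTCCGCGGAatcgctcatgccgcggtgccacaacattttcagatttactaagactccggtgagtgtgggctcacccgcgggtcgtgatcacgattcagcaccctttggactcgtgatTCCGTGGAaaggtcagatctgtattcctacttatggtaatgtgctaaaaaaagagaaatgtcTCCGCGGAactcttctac
PDR15: gcatgctcgtTCCGCGGAgagtctcgag
LAF1: gcttatttctTCCGCGGAtgatcctgga

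CIS1 has 1 palindromic element, 325 bases before its start codon, and PDR3 has 2, at 191 and 224 bases. PDR5 carries 4 elements between 313 and 563 bases before its start, 2 of each form. YGR035C has 2 of the common form, written here as they read on the gene's strand (TCCACGGA). The number of elements did not order the genes: CIS1 with 1 element differed more than PDR5 with 4, PDR10 with 2 elements within 500 bases did not pass the test, and ARI1 had no match within 1000 bases and was 4.16-fold lower. The region between PDR3 and the divergent gene LDB7 holds the 2 PDR3 elements at 124 and 157 bases from LDB7, which read 52.3 and 50.2 CPM in GAL-PSD1 and 48.7 and 41.6 CPM in pdr3Δ and did not pass (-0.18 ± 0.08, adjusted p = 0.146).

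Within 500 bases of the start codon TCCGNGGA was found before 15 of the 20 targets (75%), 10 of 23 genes at least 2-fold lower that have such a window (43.5%), and 165 of all 5693 genes with a window (2.9%). Within 250 bases the counts were 2, 3 and 56 (0.984% of all genes), and within 1000 bases 19, 14 and 309 (5.43%). Most elements of the targets thus lie more than 250 bases upstream. The windows were not cut at neighbouring genes, so a match can lie within another gene. The 23 genes include listed targets and the deleted PDR3. Outside the target lists the element was found within 500 bases of 3 of 13 genes at least 2-fold lower (23.1%): PDR3, HXT3 and RTS3. Among genes called lower at any size, listed targets included, 7.99% held the element within 500 bases. The share was 2.44% of those called higher and 2.34% of those called neither. The palindrome alone was found within 500 bases of 30% of the targets and 0.562% of all genes. The target lists were chosen by name with earlier results of these data known, and not by a search for the element. Their share therefore describes the lists only. Outside the target lists, matches within 1000 bases lie before lower genes such as LAC1, YGP1 and HXT3, described below. They also lie before genes that were not lower. The palindrome stands before YRR1 (268 bases, -0.18) and ERG4 (624 bases, 0.17), neither of them called. The ERG4 match, at chrVII:472231-472238, lies within the neighbouring PDR1 locus. Other forms stand before RPS26B (858 bases, 0.35) and GCY1 (356 bases, 0.35). A match is a match of letters in the reference and shows no binding.

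**Figure D4:**
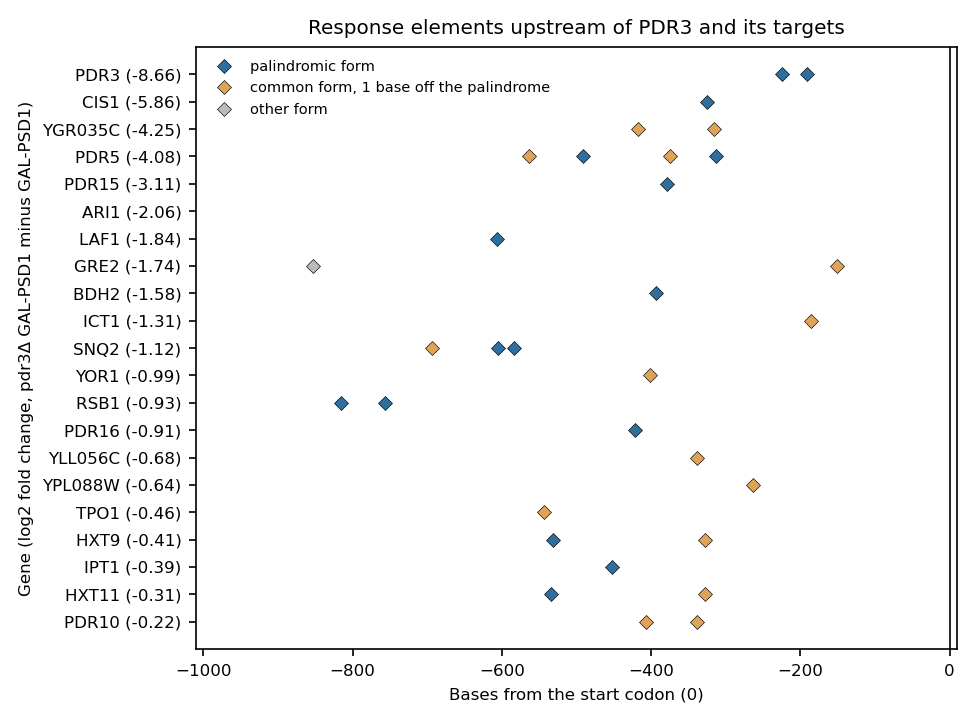
Distance of each TCCGNGGA match from the start codon (0) for PDR3 and the 20 targets, ordered by log2 fold change (in brackets, pdr3Δ minus GAL-PSD1). Blue diamonds are the palindromic form, orange the common form and grey other forms, and most lie between 300 and 600 bases upstream, with no match for ARI1.

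Set beside WT, the targets did not all stand the same way in pdr3Δ. Against WT 39.1% of all loci were called in either direction, 1210 of the 6171 above WT and 1205 below. Of the 20 targets, 8 were above WT (CIS1, GRE2, HXT11, HXT9, BDH2, YLL056C, PDR15 and SNQ2), 4 were below it (PDR5, YPL088W, TPO1 and IPT1) and 8 did not differ past the threshold. The share of targets below WT is near that of all loci. The median of the 20 was 0.11 for pdr3Δ minus WT and 1.46 for GAL-PSD1 minus WT. These comparisons share libraries with each other and with the one above, and pdr3Δ also differs from WT in PSD1 and in the galactose genes. YPL088W read 63.4 and 64.8 CPM in WT, 67.6 and 71.2 CPM in GAL-PSD1 and 46.7 and 42.3 CPM in pdr3Δ. Its WT and overexpression libraries differ little, and the pdr3Δ libraries lie below both.

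Among the regulators of drug resistance, only PDR3 itself was lower, 1 of 8. PDR1 (YGL013C, chrVII:469092-472298), the paralog of PDR3, read 127.7 and 127.1 CPM in GAL-PSD1 and 124.3 and 124.1 CPM in pdr3Δ (-0.04 ± 0.05, adjusted p = 0.616). YRR1, RDR1, YAP1, STB5, YRM1 and PDR8, which encode further zinc cluster factors and, in Yap1, the oxidative stress regulator, ran from -0.18 to 0.09 and none passed. Of 18 drug and weak acid transporters outside the target lists, 4 were lower and 0 higher, with a median of -0.13, against 9.12% lower over all loci: TPO2 (-0.55 ± 0.09), FLR1 (-0.31 ± 0.07), PDR11 (-0.30 ± 0.06) and QDR1 (-0.28 ± 0.09). Without GAL-PSD1 library 1 or 2, or pdr3Δ library 1 or 2, the lower calls were 2, 1, 2 and 3.

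Besides CIS1, the genes that clear the outer membrane differed little. Of the 9 listed, 4 were lower, against 9.12% of all loci: CIS1, MSP1, NPL4 and UFD1. MSP1 (YGR028W, chrVII:542203-543291), the extracting ATPase, read 156.2 and 157 CPM in GAL-PSD1, 140.4 and 129.7 CPM in pdr3Δ, and 138.9 and 132.6 CPM in WT. The pdr3Δ libraries lay below the overexpression libraries and at the level of WT (-0.21 ± 0.05, adjusted p = 0.0228). That call was lost without either overexpression library (adjusted p = 0.108 and 0.138), without pdr3Δ library 2 (0.165) and with DESeq2 (0.0557). NPL4 (-0.20 ± 0.06) and UFD1 (-0.17 ± 0.05), the cofactors of the segregase Cdc48, were likewise lost without single libraries, and DESeq2 called CIS1 alone of the 9. CDC48 (-0.15 ± 0.05, adjusted p = 0.0566), its recruiter UBX2 (-0.18 ± 0.08, adjusted p = 0.159) and the ubiquitin ligase gene SSM4 (-0.06 ± 0.05) did not pass. TOM70 (YNL121C, chrXIV:398684-400537), the receptor to which Cis1 binds, read 575.6 and 612.9 CPM in GAL-PSD1 and 604.8 and 551.8 CPM in pdr3Δ, which overlap (-0.04 ± 0.06, adjusted p = 0.706), and its paralog TOM71 read -0.04 ± 0.05.

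The machinery of import itself was near its level in GAL-PSD1. The 34 import genes had a median of -0.02 and a range of -0.23 to 0.17. Over all loci 11.8% were higher and 9.12% lower. Of the 34, 1 was higher (TIM10, 0.17 ± 0.05) and 2 were lower (TIM13, -0.23 ± 0.07, and MIA40, -0.15 ± 0.04). These 3 genes act in the intermembrane space, the small Tims as chaperones of hydrophobic precursors and Mia40 as the oxidoreductase that traps small cysteine-rich proteins. Each of the 3 calls was lost without any 1 of the 4 compared libraries. Of 20 mitochondrial chaperones and proteases, 6 were lower and 0 higher, against the same shares of all loci. HSP60, the matrix chaperonin, read 4359 and 4516 CPM in GAL-PSD1, 3512 and 3173 CPM in pdr3Δ, and 1995 and 1747 CPM in WT. It lay between the other groups (-0.41 ± 0.08, adjusted p = 0.00631), as did its co-chaperonin HSP10 (-0.28 ± 0.05), the Hsp70 gene SSC1 (-0.39 ± 0.08) and its J-protein gene MDJ1 (-0.27 ± 0.05). Without GAL-PSD1 library 2, 1 of the 20 was called, and without any other compared library 5 or 6.

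Ribosome quality control, which rescues stalled ribosomes including those at the mitochondrial surface, showed no call among 4 genes: RQC2 read -0.11 ± 0.08, RKR1 0.01 ± 0.05, RQC1 0.01 ± 0.06 and VMS1 0.10 ± 0.06. Of 6 genes that regulate or assemble the proteasome, 2 were lower, against 9.12% of all loci. They were the transcriptional activator gene RPN4 (-0.16 ± 0.05, adjusted p = 0.0362) and the assembly chaperone gene PBA1 (-0.24 ± 0.05, adjusted p = 0.0126). RPN4 read 228 and 235.1 CPM in GAL-PSD1, 210.5 and 204.1 CPM in pdr3Δ, and 145.7 and 144.8 CPM in WT, so pdr3Δ stayed nearer to overexpression than to WT. The RPN4 call was lost without any 1 of the 4 libraries compared and the PBA1 call without any but pdr3Δ library 1.

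Lipid genes outside the target lists differed in a few places. On the route from phosphatidylserine to phosphatidylcholine only PSD1 was called, 1 of 5, and CHO1, which makes its substrate, read 0.18 ± 0.08 (adjusted p = 0.167). Of 19 sphingolipid genes, 4 were lower and 1 was higher, with a median of -0.02, against 9.12% lower and 11.8% higher over all loci. The ceramide synthase gene LAC1 read 160.7 and 175.1 CPM in GAL-PSD1, 90.2 and 89 CPM in pdr3Δ, and 69.5 and 75.3 CPM in WT. SCS7, the hydroxylase of ceramide fatty acids, read 376.2 and 417.6 CPM, 253.3 and 245.2 CPM, and 235.3 and 212.3 CPM. Both were lower without overlap, LAC1 by 0.91 ± 0.06 (adjusted p = 1.61e-05) and SCS7 by 0.67 ± 0.07 (adjusted p = 0.00026), and the other two were IPT1, also a listed target, and the ceramide synthase subunit gene LIP1 (-0.23 ± 0.06). LAC1 has a palindromic element 437 bases before its start. SCS7 overlaps YMR272W-A on the opposite strand over 114 bp, which also read lower (-0.59). Of 22 ergosterol genes 1 was lower, ERG12 (-0.19 ± 0.05), with a median of -0.02, and its call was lost without any 1 of the 4 libraries compared and with DESeq2 (adjusted p from 0.0513 to 0.11).

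Some of the listed stress genes were lower in pdr3Δ, by small amounts. The labels do not say whether WT was induced, and the galactose genes GAL1, GAL2, GAL7 and GAL10 together took 0.0123% and 0.00534% of counts in WT against 2.08% and 1.99% in GAL-PSD1. Of 22 cytosolic heat shock genes, 13 were lower and 0 higher (median -0.22), against 9.12% lower over all loci, and all 22 were above WT, as were 1210 of the 6171 loci. SSA1, a cytosolic Hsp70, read 1879 and 1830 CPM in GAL-PSD1, 1419 and 1293 CPM in pdr3Δ, and 444.2 and 391.3 CPM in WT. It was lower by 0.45 ± 0.07 (adjusted p = 0.00255) and stayed 1.70 above WT. SSA1 overlaps YAL004W on the opposite strand over 648 bp. Of 26 general stress genes of Msn2 and Msn4, 11 were lower and 1 was higher (median -0.15), and 24 were above WT. YGP1, a secreted glycoprotein, was lower by 0.68 ± 0.06 (adjusted p = 0.000124) and holds a palindromic element 586 bases before its start. The phosphogluconate dehydrogenase gene GND2 read 227.3 and 251.2 CPM against 171.6 and 178.8 CPM (-0.45 ± 0.06), with WT at 16.9 and 15.8 CPM. In the distances from WT, galactose induction and PSD1 overexpression cannot be told apart.

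The unfolded protein response answers misfolding in the endoplasmic reticulum, and some of its genes were lower in pdr3Δ too. Of 18 listed genes 11 were lower in pdr3Δ and 0 higher, with a median of -0.24, against 9.12% lower over all loci. Against WT 1 was above and 6 were below, a share near the 39.1% of all loci called against WT. ULI1, named for its induction by that response, read 21 and 23 CPM in GAL-PSD1, 6.38 and 8.28 CPM in pdr3Δ, and 6.26 and 6.77 CPM in WT. It was lower by 1.59 ± 0.14 (adjusted p = 0.000139), to the level of WT. ERO1, the oxidase of disulfide formation, was lower by 0.57 ± 0.07 and lay above WT by 0.50, while SIL1, an exchange factor, was lower by 0.54 ± 0.06 and lay below WT (-0.34). KAR2, the Hsp70 of this compartment, read 1174 and 1203 CPM against 920.7 and 844.4 CPM (-0.43 ± 0.07, adjusted p = 0.00418), with WT at 1038 and 889.8 CPM. Without GAL-PSD1 library 1, GAL-PSD1 library 2, pdr3Δ library 1 and pdr3Δ library 2 in turn, the lower calls were 5, 3, 7 and 7 of 18 here. For heat shock they were 6, 2, 12 and 7 of 22, and for general stress 8, 3, 7 and 10 of 26, or 7 with FPKM.

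Glycolysis and fermentation genes were lower in 14 of 17 cases, with 1 higher and a median of -0.37, against 9.12% lower and 11.8% higher over all loci. PDC1, the main pyruvate decarboxylase, read 5064 and 5782 CPM in GAL-PSD1, 2790 and 3125 CPM in pdr3Δ, and 3110 and 2686 CPM in WT. The pdr3Δ libraries lay below those of overexpression (-0.87 ± 0.09, adjusted p = 0.000411) and overlapped WT. TDH2, a glyceraldehyde phosphate dehydrogenase with close paralogs, was lower by 0.61 ± 0.07, ADH1, the fermentative alcohol dehydrogenase, by 0.44 ± 0.06, and PGI1, the phosphoglucose isomerase, by 0.33 ± 0.05. The lower calls were 9, 6, 11 and 9 of 17 without the same libraries in turn.

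Respiratory genes went the other way. All 35 listed nuclear genes for the respiratory complexes and ATP synthase were higher in pdr3Δ (median 0.38, range 0.25 to 0.47), against 11.8% of all loci. All 35 were still below WT, as were 1205 of the 6171 loci, and here too WT differs in the galactose genes. SDH2, a subunit of succinate dehydrogenase, read 653.2 and 653.5 CPM in GAL-PSD1, 930.3 and 865.2 CPM in pdr3Δ, and 1201 and 1182 CPM in WT. COX4, a subunit of cytochrome c oxidase, read 368.4 and 363.8 CPM, 509.7 and 477 CPM, and 728.5 and 748.3 CPM. For both, pdr3Δ stood between the other groups without overlap, with SDH2 higher by 0.46 ± 0.05 (adjusted p = 0.000533) and COX4 by 0.43 ± 0.05 (adjusted p = 0.000617). Among 13 tricarboxylic acid cycle genes, 8 were higher and 0 lower (median 0.23), among them the citrate synthase gene CIT1 (0.49 ± 0.07), the malate dehydrogenase gene MDH1 (0.43 ± 0.06) and KGD2 (0.42 ± 0.05), and 12 of the 13 were below WT. Without the 2 GAL-PSD1 and the 2 pdr3Δ libraries in turn, the counts were 32, 23, 33 and 34 of 35, and 5, 2, 5 and 7 of 13.

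Growth genes were higher as well, by small amounts. Of 138 cytosolic ribosomal protein genes 99 were higher and 1 was lower (median 0.22), against 11.8% and 9.12% of all loci, and 136 were below WT, as were 1205 of the 6171 loci. Of 45 ribosome biogenesis genes 33 were higher and 0 lower (median 0.24). RPS22B read 142.4 and 134.4 CPM in GAL-PSD1, 173.6 and 174.1 CPM in pdr3Δ, and 278.1 and 287.8 CPM in WT. Most ribosomal protein genes have a near-identical copy, so reads may be split between copies. All 10 listed histone genes, HTZ1 and HHO1 included, were higher (median 0.30). HTB2 read 391.4 and 352.9 CPM in GAL-PSD1 and 508.7 and 514.2 CPM in pdr3Δ (0.46 ± 0.06, adjusted p = 0.000811). Of 22 G1/S genes 15 were higher and 0 lower (median 0.25). RNR1, the large subunit of ribonucleotide reductase, was higher by 0.64 ± 0.05 (adjusted p = 3.27e-05) and the cyclin gene CLN1 by 0.53 ± 0.05 (adjusted p = 0.000297). These counts depended on single libraries, most on GAL-PSD1 library 2. Without GAL-PSD1 library 1, GAL-PSD1 library 2, pdr3Δ library 1 and pdr3Δ library 2 in turn, 63, 0, 69 and 48 ribosomal protein genes, 14, 5, 34 and 15 biogenesis genes, 9, 3, 9 and 6 histone genes and 9, 5, 10 and 10 G1/S genes were higher. The medians of the 4 lists stayed between 0.18 and 0.34 under every alternative run.

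**Figure D5:**
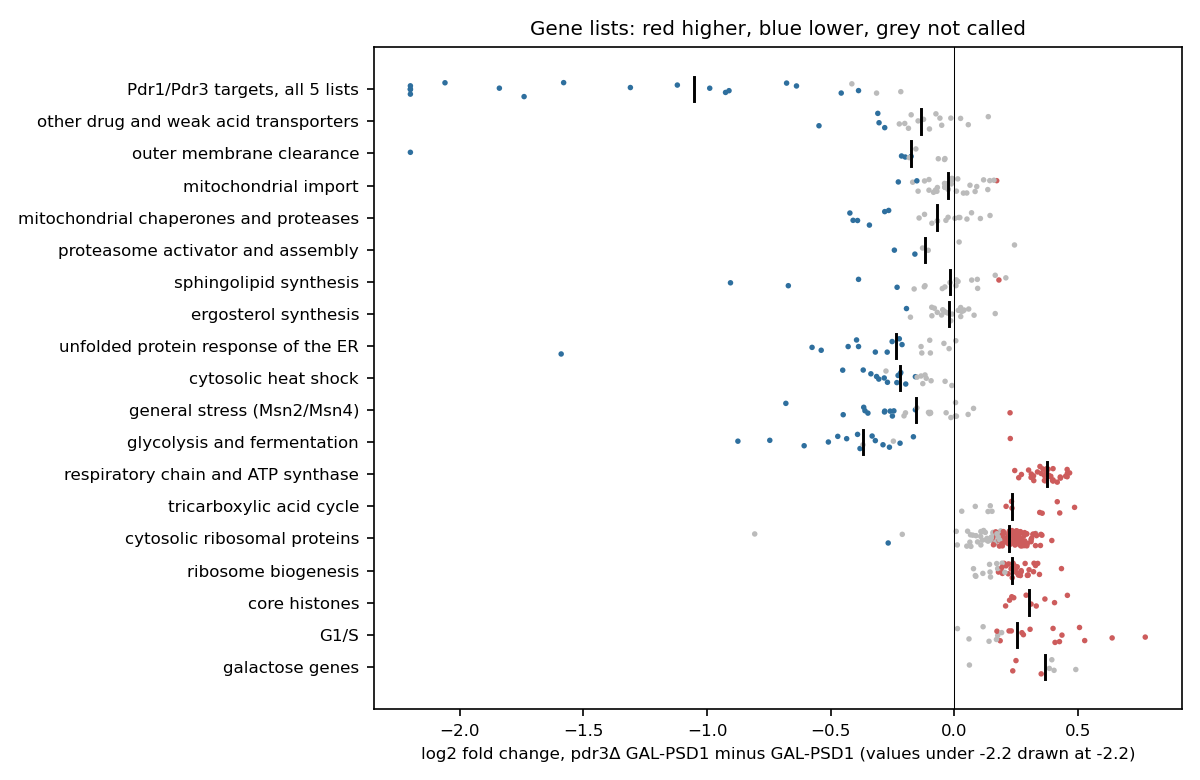
Log2 fold change (pdr3Δ minus GAL-PSD1) of each gene in 19 lists, with 1 point per locus, vertical bars for list medians, red for called higher, blue for called lower and grey for not called. Values under -2.2 are drawn at -2.2. The target list spreads to the left with a median of -1.05, the respiratory list lies to the right of 0 at a median of 0.38, and import and ergosterol genes are centred near 0.

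Outside the lists, among loci with a mean log2 CPM of at least 2, the largest falls were YOL150C and HXT3. HXT3 (YDR345C, chrIV:1162957-1164660), a hexose transporter gene, read 89.7 and 85.5 CPM in GAL-PSD1, 27.4 and 33.1 CPM in pdr3Δ, and 27.7 and 29.1 CPM in WT. It was lower by 1.54 ± 0.09 (adjusted p = 3.39e-06), to the level of WT, and has a palindromic element 388 bases before its start. Of the other genes at least 2-fold lower, the hexose transporter gene HXT4 (-1.28), RTS3 (-1.40), the purine synthesis gene ADE17 (-1.12), YOR387C (-1.47), its near-identical copy VEL1 (-1.22) and OSW2 (-1.04) stand at a mean log2 CPM of at least 2. HXT3 and HXT4 have close relatives among the hexose transporter genes, so their counts carry that uncertainty. YOR387C read 71.9 and 58.7 CPM in GAL-PSD1 and 32 and 15.1 CPM in pdr3Δ, a wide spread within the second group.

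The 12 largest rises above that level were all under 2-fold. The largest was YML090W (0.93 ± 0.12), which shares 90 bp with YML089C on the other strand. HO, the endonuclease gene of mating-type switching that is transcribed in late G1, read 126.9 and 117.8 CPM in GAL-PSD1, 211.3 and 215.2 CPM in pdr3Δ, and 242.3 and 249.3 CPM in WT. JEN1, the lactate and pyruvate permease that glucose represses, read 159.7 and 148.7 CPM, 256.6 and 267.3 CPM, and 593.1 and 610.3 CPM. Both stood between overexpression and WT without overlap, HO higher by 0.80 ± 0.05 (adjusted p = 1.32e-05) and JEN1 by 0.76 ± 0.05 (adjusted p = 2.23e-05). The others were the S-phase cyclin gene CLB6 (0.77), YIG1 (0.75), SPS4 (0.75), YGR067C (0.75), SPO16 (0.73), the glycerol transporter gene STL1 (0.71), AIM33 (0.64), RNR1 (0.64) and YDR360W (0.62), which lies opposite EAF1 over 287 bp.

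The galactose genes were read beside PSD1. GAL1, the galactokinase gene, read 6399 and 6009 CPM in GAL-PSD1, 8385 and 8038 CPM in pdr3Δ, and 42.1 and 18.8 CPM in WT. GAL2, GAL7 and GAL10 showed the same order, with both pdr3Δ libraries above both overexpression libraries, and the 4 genes ran from 0.39 to 0.49 without passing the test (adjusted p from 0.0745 to 0.198). GAL4, the activator of the galactose genes, read 0.06 ± 0.07. GAL3 (0.25 ± 0.04), GAL80 (0.24 ± 0.05) and GCY1 (0.35 ± 0.05) were higher, 3 of 8, against 11.8% of all loci. The count rested on the libraries in the fit: it was 7 of 8 with only the 4 libraries compared or without either WT library, GAL1, GAL2, GAL7 and GAL10 among them, and 1 of 8 without GAL-PSD1 library 2. PSD1, transcribed from the GAL promoter on the plasmid, was lower while the chromosomal galactose genes were level or higher. The cause of the lower PSD1 level was not tested. PSD1 shares 205 bp with YNL170W on the other strand, and chromosomal and plasmid copies cannot be told apart.

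Other genes that differ between laboratory strains were read to compare the strains. Of 6 auxotrophic marker genes, URA3 and ADE2 (-0.51 ± 0.06, adjusted p = 0.000839) were lower, against 9.12% of all loci. LEU2 (0.18 ± 0.09), TRP1 (0.08 ± 0.13), LYS2 (-0.08 ± 0.06) and the locus of HIS3 with its neighbour DED1 (-0.01 ± 0.07) did not pass. Mating type genes were read in both groups as well. STE2, the receptor for alpha factor, stood at 361.2 to 408.2 CPM in the 4 libraries compared and the alpha gene STE3 at 3.81 to 7.65 CPM. Not every alpha gene was that low: SAG1 read 49.2 and 57 CPM in GAL-PSD1 and 46.5 and 44.9 CPM in pdr3Δ. The a gene MFA1 read 21.9 and 18.9 CPM in GAL-PSD1 and 14.4 and 16 CPM in pdr3Δ. Of the 5 a genes 1 was lower (MFA1, -0.43 ± 0.12) and 1 higher (STE2, 0.15 ± 0.05), and none of 4 alpha genes passed. Both calls were lost without any 1 of the 4 libraries compared and with DESeq2. Around the deleted gene, LDB7, YBL006W-A, SLA1, HIR1 and YBL008W-A on one side and YBL005W-B and UTP20 on the other did not pass, and a tRNA gene there had 0 counts in every library. The next genes out, the histone pair HTA2 (0.41 ± 0.06) and HTB2 (0.46 ± 0.06), were higher along with the other histone genes.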

How the data were processed

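Illumina TruSeq libraries of 6 W303 samples were sequenced, per the labels' protocols. The submitters' processing notes name Cufflinks 2.2.0, Cuffdiff 2.2.0, TopHat2 2.0.9, SAMtools 0.1.18 and Bowtie2 2.1.0 on sacCer3 (R64). No source used here gives the counting tool, its strand setting or the annotation release. The authors deposited raw whole-number counts for each locus and, in a second table, FPKM values, which are corrected for length and depth. Of 6931 loci, 6816 hold 1 gene and 115 hold several. Coordinates of 99.68% of matched genes equal those of the R64 RefSeq annotation, from which upstream sequences were read.

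The counts went into edgeR 4.0.16 (R 4.3.3, TMM scaling, filterByExpr by group, quasi-likelihood test over all 6 libraries, 3 residual degrees of freedom, Benjamini-Hochberg over 6171 loci, threshold 0.05). The biological coefficient of variation was 4.66%, so calls were made down to an absolute log2 difference of 0.14. SEs were taken as the size of the log2 fold change over the root of F. Replicates differed by more than counting noise (chi-square per degree of freedom 3.01 to 7.17), so no pair was treated as 1 library deposited again, which does not show that they came from separate cultures.

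The members and lists were chosen with earlier results of these data known. Genes were named by rule: PDR3, PSD1, PDR1, MSP1 and TOM70, all Pdr1/Pdr3 targets, the 12 largest falls and 12 largest rises among called loci without overlap and with a mean log2 CPM of at least 2, up to 4 members of each other list by smallest p, all members of the lists of regulators, outer membrane clearance, galactose, marker and mating type genes, 5 loci on each side of PDR3, and genes overlapping these. The remaining loci at least 2-fold lower were named after their values were seen. Alternatives were DESeq2 1.42.0, limma 3.58.1 on log2(FPKM + 1) and log2(FPKM + 0.1), other scalings, filters and library sizes, only the 4 libraries compared, a replicate block and each library left out.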

Additional observations from a re-analysis of the deposited data

How the results depend on the processing

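The 17 lower targets and the 25 loci at least 2-fold lower held up best: the targets numbered 15 to 17 and those loci 20 to 28 when single libraries were left out, and DESeq2 gave 16 and 19. DESeq2 gave no adjusted p for YGR035C, whose log2 fold change stayed at -4.27. The many small differences moved more. Leaving out single libraries gave 101 to 846 loci higher, 132 to 688 lower and 0 to 1 at least 2-fold higher, and against WT 882 to 1111 higher and 919 to 1115 lower. DESeq2 called 480 higher, 325 lower and 0 at least 2-fold higher. With limma, FPKM + 1 gave 438 higher, and FPKM + 0.1 gave 439 higher and 4 at least 2-fold higher. Leaving out a library also leaves fewer samples, and for the other settings the cause was not tested. The element was found in 56, 165 and 309 of all genes, 2, 15 and 19 targets and 3, 10 and 14 of the genes at least 2-fold lower, within 250, 500 and 1000 bases. The replicate numbers were not taken as pairs, since the deviations of same-numbered libraries correlated at 0.0407, 0.194 and -0.0203 for the 3 pairs of groups. With a replicate block the calls were 776 higher, 617 lower and 25 at least 2-fold lower, with 17 targets lower, and against WT 1242 higher and 1241 lower. Of 99 called genes named by the rule, 60 kept their call under all of the 16 alternatives that gave them an adjusted p. Those that changed sign were not called either way: HIS3 with DED1 read 0.01 with library totals alone and -0.07 to 0.05 without single libraries, where TRP1 read -0.04 to 0.20, RQC1 -0.02 to 0.03, OPI3 -0.25 to 0.15, RKR1 -0.02 to 0.04, HIR1 -0.09 to 0.01, TOM70 -0.11 to 0.03 and CHO2 -0.11 to 0.23. With 2 libraries a group and 3 residual degrees of freedom, loci of few counts limit what can be seen: HXT9 and HXT11 had at most 4.21 CPM.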

Other observations

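Of the 25 loci at least 2-fold lower, 4 had a mean log2 CPM under 2 and few counts. YGL258W-A had 19 and 13 counts in PSD1 overexpression and 3 and 7 in pdr3Δ, YAR053W 13 and 13 against 5 and 4, ECM11 20 and 13 against 6 and 8, and YOR192C-B 32 and 36 against 20 and 16. The 1 locus at least 2-fold higher, YOR314W, had 21 and 17 counts in PSD1 overexpression, 47 and 41 in pdr3Δ, and 63 and 73 in WT (log2 1.08 ± 0.23, edgeR adjusted p = 0.0112), so that pdr3Δ again stood between the other groups.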
